A study of Mus musculus with 7 samples.

Results

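Ligands and checkpoint proteins of the B7 family sit on the surface of dendritic cells (DCs) and set how a T cell responds to the antigen it is shown. The genes described here are 8 of the 28666 in the deposited table, chosen by symbol: Cd80, Cd86, Icosl, Cd274, Pdcd1lg2, Cd276, Vsir and Havcr2. They were compared between immature and mature bone marrow-derived DCs (BMDCs) of the mouse, with 3 libraries of immature and 4 libraries of mature cells. By the study's methods, the marrow came from female C57BL/6 mice 6 to 8 weeks old and was cultured for about a week with GM-CSF and IL-4. The BMDCs were then kept in a Transwell system with the mouse colon carcinoma line MC38, and sorted into the 2 groups by flow cytometry. The glutamine antagonist DON was given for 24 h, and the legend that describes the experiment names DMSO or DON at 5 µM. The labels give no treatment for single libraries, so the comparison is between sorted states and says nothing of DON against DMSO. The labels do not say whether libraries came from separate mice or cultures, so p values measure the spread between these samples alone, which may be technical.

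As background, CD80 and CD86 engage CD28 to costimulate T cells and CTLA-4 to restrain them, and ICOS ligand engages ICOS. PD-L1 (Cd274) and PD-L2 (Pdcd1lg2) engage PD-1 on T cells and inhibit them, and both can be raised by interferon and inflammatory signals. B7-H3 (Cd276) and VISTA (Vsir) are further members of the family, while TIM-3 (Havcr2) belongs to the TIM family and acts as a checkpoint receptor that DCs can carry themselves. The flow cytometry of the same study counts DCs positive for CD80 and CD86 as mature, and the gate of this sort is not given. If the cells were sorted by these proteins, a rise of Cd80 and Cd86 RNA is no independent measure of maturation.

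Total counts were 54846746 to 67973086 per library. Mature replicate 3 stood apart, with a median chi-square per gene of 17.669 to 25.575 against the other mature libraries, where other pairs within a group gave 3.829 to 5.267. Heart muscle genes were high in mature replicates 2, 3 and 4: the FPKM of 10 of them summed to 1.86 to 2.13 in the immature libraries, 12.4 in mature replicate 1 and up to 292 in the other mature libraries. The DC marker Itgax, which encodes CD11c, was high in every library, with means of 253 and 206 FPKM in immature and mature cells. Of 12 macrophage markers, 11 passed the criteria given below and all 11 were lower in mature cells, with a summed level of 8736 to 8890 FPKM in immature and 1081 to 1360 FPKM in mature libraries. Of the DC markers, 4 of 9 passed upward and none downward, where 13.2% of all tested genes passed upward and 9.95% downward. By adjusted p alone 6 of them were higher and 1 was lower, which was Itgax (log2 fold change -0.41, edgeR adjusted p = 0.0124). Erythroid genes, at most 4.82 FPKM in sum, passed upward in 4 of 5 cases. B cell, T and NK cell, mast cell and neutrophil lists summed to at most 9.84 FPKM in any library. In these bulk samples, fewer cells of a type and less RNA per cell cannot be told apart.

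The start regions of 4 genes are shown because their RNA gave the clearest contrasts: Cd80 and Vsir differed most in opposite directions among the members with a start region in the table used, and Cd274 and Pdcd1lg2 are neighbours on chromosome 19 that rose together. Each is the 250 bases before the gene's RefSeq start in build GRCm38.p6, on the gene's strand and 5′ to 3′, and 7 of the 8 members had an entry. Capitals mark matches to 5 motifs searched on both strands: the NF-kappa B site, the interferon-stimulated element (GAAA, any 2 bases, GAAA), the gamma-activated site TTCNNNGAA, the AP-1 site TGANTCA and the PU.1 core GAGGAA. The windows are chr16:38458683-38458932, chr10:60346601-60346850, chr19:29367188-29367437 and chr19:29410669-29410918, all on the plus strand. The RefSeq start of Cd80 lies inside the span of the deposited gene, which begins at 38455561.
Cd80: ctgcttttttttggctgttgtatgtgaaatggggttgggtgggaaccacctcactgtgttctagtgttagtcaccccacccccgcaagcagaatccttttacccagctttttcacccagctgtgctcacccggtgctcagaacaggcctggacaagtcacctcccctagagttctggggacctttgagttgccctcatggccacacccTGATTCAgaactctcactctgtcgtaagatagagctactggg
Vsir: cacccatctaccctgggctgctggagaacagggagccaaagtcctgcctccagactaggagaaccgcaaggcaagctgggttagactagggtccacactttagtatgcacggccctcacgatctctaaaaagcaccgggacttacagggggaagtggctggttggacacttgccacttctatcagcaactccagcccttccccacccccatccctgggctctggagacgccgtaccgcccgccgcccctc
Cd274: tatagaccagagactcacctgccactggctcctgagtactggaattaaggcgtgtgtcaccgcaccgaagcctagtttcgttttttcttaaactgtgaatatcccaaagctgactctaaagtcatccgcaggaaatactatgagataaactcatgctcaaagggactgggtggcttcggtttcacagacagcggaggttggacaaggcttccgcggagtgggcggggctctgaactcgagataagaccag
Pdcd1lg2: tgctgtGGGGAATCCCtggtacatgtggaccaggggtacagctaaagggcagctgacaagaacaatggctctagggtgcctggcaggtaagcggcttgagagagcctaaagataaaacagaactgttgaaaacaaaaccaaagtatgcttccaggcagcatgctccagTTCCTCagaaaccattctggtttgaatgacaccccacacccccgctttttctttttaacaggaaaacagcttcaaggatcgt

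The Cd80 window held an AP-1 match 42 bases before the start, TGATTCA, a motif found in 6.75% of the 32851 start windows of the same length. The Pdcd1lg2 window held an NF-kappa B match, GGGGAATCCC, beginning 244 bases before the start, and that motif is in 3.9% of windows. It also held the PU.1 core on the minus strand 82 bases before the start, which reads TTCCTC here and is in 23.3% of windows. None of the 5 motifs was in the Cd274, Vsir or Icosl windows. Outside the windows shown, Havcr2 held an AP-1 match 200 bases and a PU.1 core 8 bases before its start, and Cd276 held a PU.1 core 126 bases before its start. The interferon-stimulated element, present in 2.98% of windows, and the gamma-activated site, present in 7.02%, matched no member. No match overlapped another, and a match describes letters, not a bound site.

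The counts were put through the quasi-likelihood test of edgeR for the 17461 genes that passed its filter on low counts, and all 8 members passed it. A gene almost absent from immature cells can clear that filter through the mature libraries alone. Its p is then no independent support for a rise. A gene is called higher or lower where its adjusted p was under 0.05, and it passed the study's criteria where its log2 fold change was also at least 1 in size. By those criteria 3 of 8 members differed, Cd80 and Cd86 upward and Vsir downward, where 23.1% of all tested genes did (13.2% higher and 9.95% lower). By adjusted p alone 4 members were higher (Cd80, Cd86, Cd274 and Pdcd1lg2) and 1 was lower (Vsir), against 23.2% and 22.9% of all genes, 46.1% together. In CPM, counts scaled to library size, the ranges of the groups were apart for the same 5 members, and the share of all tested genes without overlap in CPM was 52.1%. The median log2 fold change was 0.36 over the members and 0.055 over all tested genes. With 8 members, these counts say nothing particular to the family. Levels below are FPKM, fragments scaled by gene length and library size, while fold changes come from the counts.

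**Figure D1:**
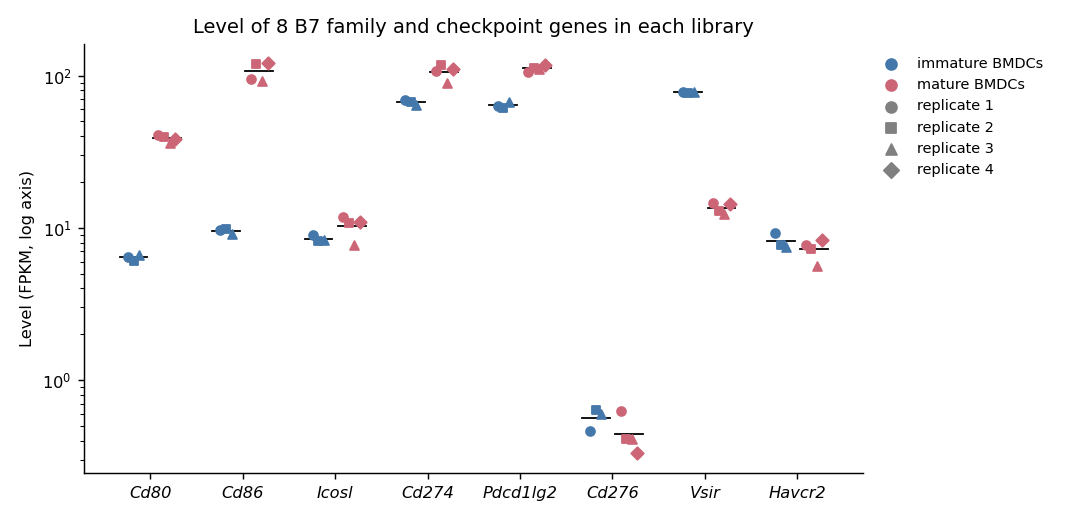
Level of each member in every library, in FPKM on a log axis. Blue points are the 3 immature and red points the 4 mature libraries, the shape of a point gives the replicate number, and lines are group means. Cd80 and Cd86 lie far higher in mature cells and Vsir far lower, Cd274 and Pdcd1lg2 are moderately higher with no overlap, and the points of Icosl, Cd276 and Havcr2 overlap.

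Among the costimulatory ligands, Cd86 moved most. Cd86 (ENSMUSG00000022901, chromosome 16 from 36603869 to 36666081, minus strand) was at 9.69, 9.89 and 9.04 FPKM in immature replicates 1 to 3 and at 94.9, 119, 91.5 and 120 FPKM in mature replicates 1 to 4. Every mature library lay far above every immature library, and mature replicates 1 and 3 were the lower pair. The counts gave a 10.3-fold rise, a log2 fold change of 3.37 with an SE of 0.12 and an edgeR adjusted p = 3.0e-07, and the 95% interval was 3.14 to 3.60. Cd80 (ENSMUSG00000075122, chromosome 16 from 38455561 to 38496335, plus strand) encodes the other CD28 ligand. Its level was 6.47, 6.10 and 6.64 FPKM in immature and 40.4, 39.7, 36.3 and 38.5 FPKM in mature libraries. The mature libraries were tightly grouped, and the rise was 5.60-fold, a log2 fold change of 2.49 with an SE of 0.081 and an edgeR adjusted p = 2.5e-07. With mature replicate 1 as the only mature library, the one with little heart muscle RNA, the log2 fold change was 3.21 for Cd86 and 2.55 for Cd80.

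Icosl (ENSMUSG00000000732, chromosome 10 from 78069302 to 78079525, plus strand), the ligand of ICOS, did not pass the test. It was at 8.96, 8.25 and 8.30 FPKM in immature and 11.8, 10.7, 7.71 and 11.0 FPKM in mature libraries. Mature replicate 3 lay below all immature libraries and the other mature libraries lay above them. The log2 fold change was 0.17 with an SE of 0.12 and an edgeR adjusted p = 0.296, with a 95% interval of -0.070 to 0.40. This result turned on mature replicate 3: without it the log2 fold change was 0.28 (edgeR adjusted p = 0.00510), still far under the fold criterion. Over all alternatives its adjusted p ran from 0.00510 to 0.545.

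Both PD-1 ligands were higher in mature cells, by less than the fold criterion. Cd274 (ENSMUSG00000016496, chromosome 19 from 29367455 to 29388095, plus strand) was at 69.0, 67.2 and 63.7 FPKM in immature and 107, 117, 89.6 and 111 FPKM in mature libraries. The groups did not overlap, and mature replicate 3 was the nearest to the immature libraries. The rise was 1.47-fold, a log2 fold change of 0.56 with an SE of 0.081 and an edgeR adjusted p = 5.6e-04, and the 95% interval was 0.40 to 0.72. Pdcd1lg2 (ENSMUSG00000016498, chromosome 19 from 29410919 to 29471161, plus strand) begins 22.8 kb beyond the end of Cd274. It was at 63.0, 61.4 and 67.3 FPKM in immature and 106, 112, 110 and 117 FPKM in mature libraries, again without overlap and here with mature replicate 3 among the others. Its rise was 1.61-fold, a log2 fold change of 0.69 with an SE of 0.085 and an edgeR adjusted p = 2.2e-04. Unlike the CD28 ligands, the PD-1 ligands were already abundant in immature cells.

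Vsir was the member that fell. Vsir (ENSMUSG00000020101, chromosome 10 from 60346851 to 60372684, plus strand), which encodes the inhibitory protein VISTA, was at 78.2, 76.5 and 77.5 FPKM in immature and 14.6, 12.9, 12.3 and 14.4 FPKM in mature libraries. All immature libraries agreed closely, and each mature library lay far below them. The level was 6.15-fold lower, a log2 fold change of -2.62 with an SE of 0.082 and an edgeR adjusted p = 2.1e-07, and the 95% interval was -2.78 to -2.46. The macrophage marker list moved with it, with a median log2 fold change of -2.61 over its 12 genes. These ran from -3.43 for Mrc1 to -0.57 for Cd163, which did not pass. Csf1r, the receptor for the growth factor M-CSF, had a log2 fold change of -2.62 (edgeR adjusted p = 1.8e-07) and was named after its value was seen. The part of these markers in the fall of Vsir was not tested.

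Cd276 and Havcr2 did not pass the test. Cd276 (ENSMUSG00000035914, chromosome 9 from 58524298 to 58555437, minus strand), which encodes B7-H3, was at 0.460, 0.640 and 0.600 FPKM in immature and 0.630, 0.410, 0.410 and 0.330 FPKM in mature libraries. It was the lowest member throughout, with 80 to 166 counts in a library, and the groups overlapped because mature replicate 1 lay among the immature libraries. The log2 fold change was -0.46 with an SE of 0.27 and an edgeR adjusted p = 0.208, with a 95% interval of -0.99 to 0.079. Against mature replicate 1 alone it was 0.041 (edgeR adjusted p = 0.934). Krt8, a keratin gene of epithelial cells on the MC38 marker list, is set beside Cd276. Its level was 2.83, 4.90 and 4.81 FPKM in immature and 5.29, 3.15, 1.88 and 1.91 FPKM in mature libraries. Krt8 was picked for this side-by-side view after its values were seen, and a share of Cd276 RNA from tumor cells was not tested. Of the 5 tested genes of that marker list, Epcam alone passed the criteria, upward from 0.103 to 0.552 FPKM. Cdh1, the most abundant, stayed level at means of 10.6 FPKM in immature and 10.7 FPKM in mature cells. Krt8, Krt18 and Krt19 had log2 fold changes of -0.57, -0.53 and -0.79 and did not pass.

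Havcr2 (ENSMUSG00000020399, chromosome 11 from 46454935 to 46481255, plus strand), the gene of TIM-3, was at 9.21, 7.73 and 7.49 FPKM in immature and 7.71, 7.21, 5.63 and 8.32 FPKM in mature libraries. The groups overlapped, with the highest value in immature replicate 1 and the lowest in mature replicate 3. The log2 fold change was -0.28 with an SE of 0.13 and an edgeR adjusted p = 0.102, with an unadjusted 95% interval of -0.54 to -0.034. A difference of the size seen for Vsir lies outside that interval and outside those of Icosl and Cd276.

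**Figure D2:**
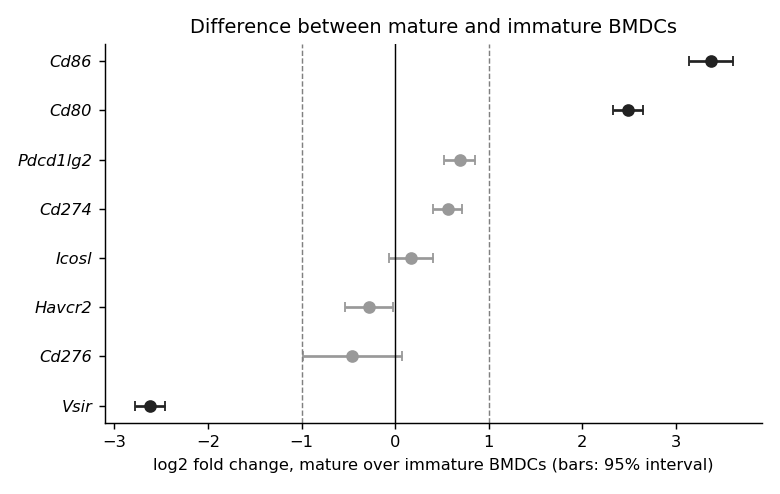
Log2 fold change of each member, mature over immature BMDCs, from the fit to the counts of all 7 libraries. Bars are 95% intervals, black points passed the criteria and grey points did not, and dashed lines mark a log2 fold change of 1 in size. Cd86 and Cd80 lie right of the upper dashed line and Vsir left of the lower one, and the bars of the other 5 genes lie between them.

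The order of the levels changed between the states. In immature cells Vsir led at 77.4 ± 0.864 FPKM (SD, n = 3), followed by Cd274 at 66.6 ± 2.68 FPKM and Pdcd1lg2 at 63.9 ± 3.04 FPKM, whose ranges overlapped. Cd86, Icosl, Havcr2 and Cd80 followed between 9.54 and 6.40 FPKM, where the range of Havcr2 overlapped those of Icosl and of Cd86. In mature cells Pdcd1lg2 at 111 ± 4.42 FPKM (SD, n = 4), Cd86 at 106 ± 15.3 FPKM and Cd274 at 106 ± 11.7 FPKM had overlapping ranges and cannot be ordered. Cd80 followed at 38.7 ± 1.81 FPKM, then Vsir at 13.6 ± 1.12 FPKM, and then Icosl and Havcr2, whose ranges overlapped. Cd276 was last in both states.

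As shares of the summed FPKM of the 8 genes, which is a description, Vsir took 32.1% ± 0.158 (SD, n = 3) in immature and 3.45% ± 0.306 (SD, n = 4) in mature libraries. Cd86 went the other way, from 3.96% to 26.9%, and Cd80 from 2.66% ± 0.0978 to 9.86% ± 0.654. The PD-1 ligands kept nearly the same part of the sum: Cd274 took 27.6% and 26.9%, and Pdcd1lg2 26.5% and 28.3%. The sum itself was 241 ± 3.67 FPKM in immature and 394 ± 32.0 FPKM in mature libraries. Set against the CD28 ligands, Cd274 plus Pdcd1lg2 stood at 8.17, 8.04 and 8.36 times Cd80 plus Cd86 in immature libraries. The same quotient was 1.57, 1.44, 1.56 and 1.43 in mature libraries, so PD-1 ligand RNA remained above CD28 ligand RNA in each library.

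**Figure D3:**
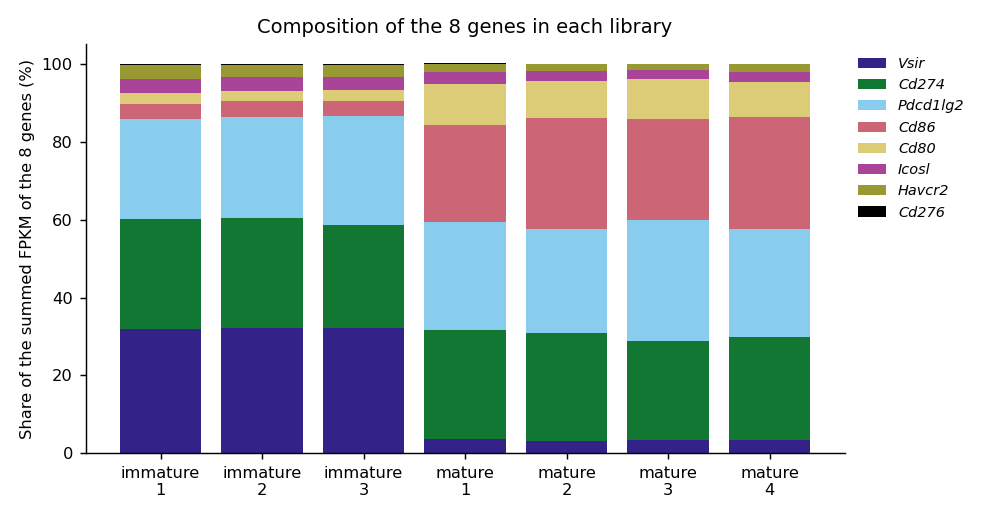
Share of each member in the summed FPKM of the 8 genes, in percent, as stacked bars for each of the 7 libraries. Vsir shrinks from 31.9 to 32.2% in immature libraries to 3.08 to 3.82% in mature libraries, Cd86 widens from at most 4.16% to at least 24.8%, and the bands of Cd274 and Pdcd1lg2 keep a similar width.

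Ratios within a library do not depend on how libraries are scaled, so 4 of them were tested by a two-sided exact permutation test over the 35 ways to label 7 libraries, whose smallest possible p is 0.0571. No ratio could therefore pass 0.05. The ratio of Cd86 to Cd80 was 1.5, 1.62 and 1.36 in immature and 2.35, 3.01, 2.52 and 3.12 in mature libraries, a 1.83-fold higher ratio with no overlap (exact p = 0.0571, adjusted over the 4 ratios 0.0762). Thus Cd86 gained on Cd80 in each mature library. The ratio of Cd86 to Cd274 was 6.99-fold higher in mature cells, and that of Cd80 to Cd274 was 3.81-fold higher. Both were without overlap and had the same p values (exact p = 0.0571, adjusted 0.0762). If the cells were sorted by CD80 and CD86, ratios that hold Cd80 or Cd86 RNA are no independent measure either. The same holds for the quotient of PD-1 to CD28 ligands above. The ratio of Cd274 to Pdcd1lg2 was 1.09, 1.09 and 0.946 in immature and 1.01, 1.05, 0.817 and 0.948 in mature libraries. It overlapped between groups, and the mature ratio was 0.912 times the immature ratio (exact p = 0.343, adjusted 0.343).

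**Figure D4:**
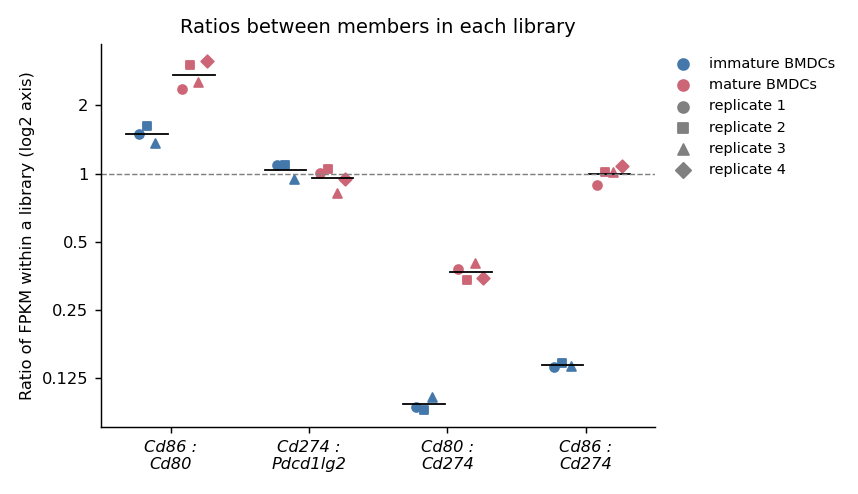
Ratio of the FPKM of 2 members within each library, on a log2 axis, with lines at the geometric mean of each group and shapes for replicate numbers. A dashed line marks equal levels. Cd86 rises against Cd80 and against Cd274, where it goes from 0.140 to 0.147 in immature to 0.889 to 1.08 in mature libraries, Cd80 rises against Cd274, and the ratio of the PD-1 ligands overlaps between groups.

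The receptors of these ligands are mainly T cell proteins, and RNA of 6 of the 7 listed was tested. By the criteria 3 were higher and 1 lower in mature cells, where 13.2% and 9.95% of all tested genes were. Pdcd1, the gene of PD-1, was at 0.0300, 0.0300 and 0.0700 FPKM in immature and 0.440, 0.570, 0.680 and 0.830 FPKM in mature libraries (edgeR adjusted p = 3.0e-04), so it was far rarer than either of its ligands in each library. Pdcd1 cleared the filter on low counts only through the mature libraries, so its p is no independent support for a rise. Icos rose from 0.0800 to 0.690 FPKM (edgeR adjusted p = 2.2e-04). Rgmb, which encodes a protein that binds PD-L2, rose from 1.13 to 3.60 FPKM (log2 fold change 1.58, edgeR adjusted p = 7.7e-05). Cd28 fell from 2.00 to 0.380 FPKM (log2 fold change -2.49, edgeR adjusted p = 1.1e-05). Ctla4 had 4 to 25 counts in a library and did not pass (edgeR adjusted p = 0.270). The T and NK cell markers were near 0 in both groups: of 9 tested Cd8a alone passed, from 0.257 to 0.792 FPKM, and the list summed to 1.61 to 2.18 FPKM in immature and 1.74 to 2.74 FPKM in mature libraries. Selplg, which encodes a receptor reported for VISTA, was higher, from 80.2 to 158 FPKM (log2 fold change 0.87, edgeR adjusted p = 2.0e-04), under the fold criterion.

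The closest relatives of the members were rare. Of 6 other B7 and butyrophilin genes in the table, 3 had too few counts to test. Btn1a1 was at 0 counts in each immature library and had 22, 10, 50 and 32 counts in the mature libraries (edgeR adjusted p = 0.00375). Btnl9 had 7, 4 and 14 counts in immature and 4, 94, 96 and 103 counts in mature libraries (edgeR adjusted p = 0.0287), so its rise was seen in the libraries with heart muscle RNA and not in mature replicate 1, a link that was not tested. It no longer passed when any 1 immature library, mature replicate 2 or mature replicate 4 was left out. Btn1a1 and Btnl9 cleared the filter on low counts only through mature libraries, so their p values are no independent support for a rise. The mature means of Btn1a1 and Btnl9 were 0.107 and 0.190 FPKM, under the 0.445 FPKM of Cd276, the rarest member.

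In the TIM family, Timd2 was at 0 counts in each immature library and had 67, 174, 73 and 95 counts in the mature libraries (edgeR adjusted p = 1.6e-04). Timd2 cleared the filter on low counts only through the mature libraries, so its p is no independent support for a rise. Havcr1 and Timd4 had too few counts to test. Lgals9, which encodes galectin-9, a ligand of TIM-3, fell from 75.8, 72.1 and 70.0 FPKM in immature to 25.0, 28.8, 30.1 and 29.9 FPKM in mature libraries. That is a log2 fold change of -1.46 (edgeR adjusted p = 6.3e-06), where Havcr2 itself did not pass. Ceacam1, another reported TIM-3 partner, was lower by less than the criterion (log2 fold change -0.84, edgeR adjusted p = 0.00113).

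Checkpoint genes outside the family moved both ways: of 16 tested, 4 were higher and 5 lower by the criteria, with a median log2 fold change of 0.32. Of all tested genes, 13.2% were higher and 9.95% lower by the criteria. Cd200 was at 0.820 to 0.950 FPKM in immature and 17.1 to 20.9 FPKM in mature libraries, a log2 fold change of 4.33 (edgeR adjusted p = 1.8e-07). The gene of its receptor, Cd200r1, fell from 93.3 to 17.4 FPKM (log2 fold change -2.53, edgeR adjusted p = 2.6e-07). Btla had 4 counts in all in the immature libraries and 22 to 43 counts in each mature library (edgeR adjusted p = 0.00906), and Cd226 fell from 3.00 to 0.645 FPKM (log2 fold change -2.33, edgeR adjusted p = 4.0e-05). Btla cleared the filter on low counts only through the mature libraries, so its p is no independent support for a rise. The fall of Cd200r1 was thus close in size to that of Vsir, and the rise of Cd200 was above that of Cd86.

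Interferon and NF-kappa B signals can raise Cd274. RNA of 17 genes of these pathways was read, which does not measure signal activity. By the criteria 5 were higher and 1 lower, where 13.2% and 9.95% of all tested genes were. The median log2 fold change over the 17 genes was 0.56. The passing genes upward were Jak2 and 4 NF-kappa B subunit genes. Relb rose from 9.39 to 62.1 FPKM (log2 fold change 2.63, edgeR adjusted p = 1.8e-06) and Nfkb2, its usual partner, from 19.9 to 109 FPKM (log2 fold change 2.34, edgeR adjusted p = 3.0e-07). Ifngr1, a chain of the interferon gamma receptor, fell from 48.8 to 26.3 FPKM, a log2 fold change of -1.0 (edgeR adjusted p = 1.1e-05) that lay at the edge of the criterion and passed in 5 of 18 alternatives. Irf1, a direct activator of Cd274, was higher by adjusted p alone (log2 fold change 0.64, edgeR adjusted p = 0.00106).

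Of 7 genes that act on PD-L1 protein, 1 passed the criteria, where 23.1% of all tested genes did. Hip1r, which directs PD-L1 to lysosomes, rose from 0.820 to 2.65 FPKM (log2 fold change 1.58, edgeR adjusted p = 3.3e-05). Cmtm6, which protects PD-L1 at the cell surface, was at 52.9 to 58.3 FPKM in immature and 96.0 to 115 FPKM in mature libraries, a log2 fold change of 0.86 (edgeR adjusted p = 3.3e-05) under the fold criterion. Like the PD-1 ligands, it was abundant in both states and moderately higher in mature cells. By adjusted p alone 2 genes of this list were higher, Hip1r and Cmtm6, and 2 were lower. The lower genes were Gsk3b (log2 fold change -0.99, edgeR adjusted p = 1.6e-04) and Cops5 (log2 fold change -0.30, edgeR adjusted p = 0.0498).

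Genes of the mature DC programme gave a scale for these changes. All 15 that could be tested passed the criteria upward, where 13.2% of all tested genes did, and Lamp3 had too few counts. Their median log2 fold change was 2.88. The list was chosen with earlier results of these data known, so neither this count nor a member's place beside the list is a test. Fscn1, which encodes the actin-bundling protein fascin, rose most after Cd200, from 13.0 to 243 FPKM (log2 fold change 4.12, edgeR adjusted p = 1.6e-07). On this scale Cd86, at 3.37, lay above the median and Cd80, at 2.49, below it, and the PD-1 ligands lay below every gene of the list, whose smallest rise was that of Birc3 at 1.15.

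**Figure D5:**
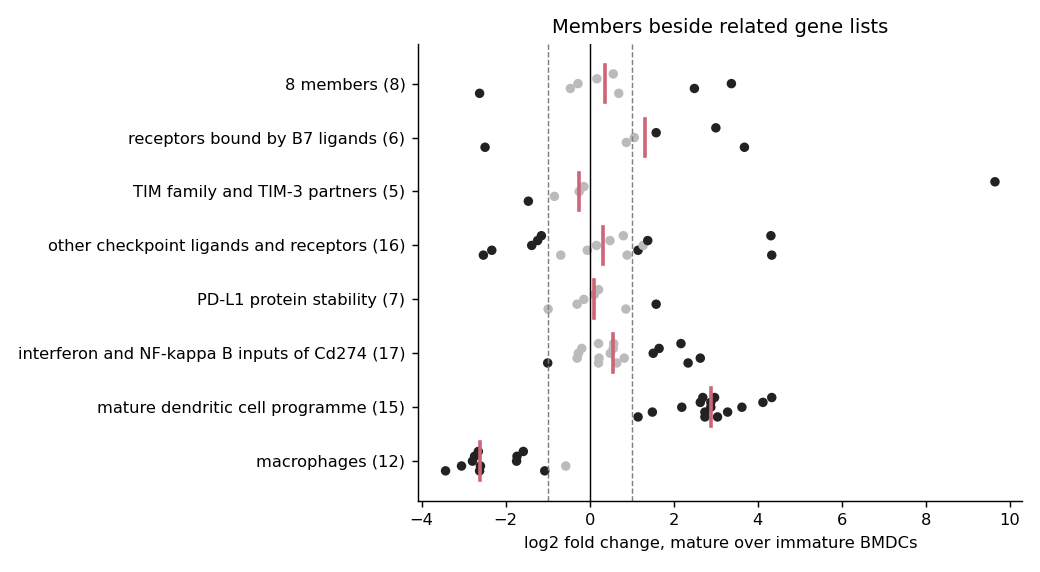
Log2 fold change, mature over immature BMDCs, of the 8 members and of the tested genes of related lists, with the number tested in parentheses. Black points passed the criteria, grey points did not, red lines are list medians and dashed lines mark 1 in size. Members spread to both sides as other checkpoint genes do, 15 of 15 genes of the mature DC programme lie right of the upper dashed line, and 11 of 12 macrophage markers lie left of the lower one. The point of Timd2 rests on no count in any immature library, so its place depends on the fit and is no measure of size.

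Around the members, 57 tested genes lay within 250 kb on the same chromosome and 19 of them passed the criteria, where 23.1% of all tested genes did (13.2% higher and 9.95% lower). Next to Cd80, 6 of 12 passed and all were higher, among them Poglut1, which encodes a glycosyltransferase and lies 28.8 kb away (10.5 to 52.7 FPKM, log2 fold change 2.22, edgeR adjusted p = 3.0e-07). The other 5 were Tmem39a, Pla1a, B4galt4, Popdc2 and D930030I03Rik, with log2 fold changes of 1.08 to 5.19. The last is that of Popdc2, a gene of heart and skeletal muscle, which was at 0 to 0.110 FPKM in immature libraries, 0.260 in mature replicate 1 and 2.54, 3.75 and 2.81 in mature replicates 2, 3 and 4. It was thus high in the libraries with heart muscle RNA, whose part in its rise was not tested. Next to Cd86, 4 of 9 passed and all were higher, Iqcb1, Slc15a2, Ildr1 and Casr, each with a mean of no more than 1.94 FPKM in mature cells. The stretches do not overlap, since 1789 kb separate Cd86 from Cd80. Next to Icosl, 3 of 10 passed and all were lower, Dnmt3l, Trpm2 and the glycolysis gene Pfkl (37.2 to 19.7 FPKM, log2 fold change -1.02). No tested neighbour of Cd276 passed, of 4.

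The stretch of chromosome 19 with the PD-1 ligands also holds Jak2, the kinase that acts at the interferon gamma receptor, 54.4 kb from Cd274. Jak2 was at 102, 90.7 and 96.3 FPKM in immature and 328, 330, 217 and 313 FPKM in mature libraries, a log2 fold change of 1.51 (edgeR adjusted p = 2.5e-05). Its rise was larger than that of either ligand. Mature replicate 3, the library that stood apart, was the lowest mature library for Jak2 and Cd274. It was also the lowest for Ric1 on this stretch (4.70 against 9.55 to 10.7 FPKM) and the highest for Insl6 (66.0 against 40.9 to 45.4 FPKM). Insl6 next to Jak2 rose as well (log2 fold change 1.17, edgeR adjusted p = 0.00176). A930007I19Rik, on the minus strand across the end of Pdcd1lg2, fell (log2 fold change -1.34, edgeR adjusted p = 1.3e-04), and Gm36043, on the minus strand inside the span of Cd274, did not pass (log2 fold change 1.45, edgeR adjusted p = 0.0564). The strand setting of the counting is not given in the sources used here, so reads of these overlapping pairs may not be told apart.

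Near Vsir, Psap, the gene of the lysosomal protein prosaposin 44.3 kb away, fell from 8607 to 2086 FPKM (log2 fold change -2.15, edgeR adjusted p = 4.9e-07), and Chst3 rose from 0.0967 to 1.28 FPKM (log2 fold change 3.57, edgeR adjusted p = 1.6e-06). Vsir lies inside the span of Cdh23, on the other strand, which was at 0.0833 and 0.177 FPKM. Near Havcr2, Timd2 was the passing gene, of 7 tested, and it cleared the filter on low counts only through the mature libraries.

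For each member, the genes with the most similar level across the 7 libraries were found by Pearson's r of log2 CPM over 11322 genes with a mean of at least 1 FPKM. Where a member differs strongly between the states, r is near 1 for very many genes, so these names describe and do not test. Cd80 was most like Gnb4, Cytip and Cx3cl1 (r = 0.9999, 0.9997 and 0.9996), and Aldh9a1 and Slc4a8 were among the genes most like Cd86 (r = 0.9989 and 0.9989). Vsir was most like Serp1, Tlnrd1 and Igf1 (r = 0.9998, 0.9997 and 0.9995). Cd274 was most like Kcnd1, Rbbp8 and Ccnd2 (r = 0.9974, 0.9970 and 0.9964), and Pdcd1lg2 was most like Nek8, 6430571L13Rik and Tcea3 (r = 0.9984, 0.9982 and 0.9971). The members that did not pass had looser matches: Icosl with Cplane1, Zbtb4 and Zfp646 (r = 0.9843, 0.9825 and 0.9809), Havcr2 with Prkce, Parg and Slc35a3 (r = 0.9678, 0.9643 and 0.9600), and Cd276 with Pgghg, Hnrnpa2b1 and Chaf1a (r = 0.9535, 0.9468 and 0.9466).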

How the data were processed

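The series holds RNA-seq of 3 immature and 4 mature BMDC libraries, with groups and replicate numbers taken from the sample labels. The 8 members and all gene lists were chosen with earlier results of these data known. The deposited table gives counts per gene and FPKM values, which the authors scaled by gene length and library size. Among the listed genes no count above 0 was below 3. Btnl2, for example, had 4 in immature replicates 1 and 2 and 8 in mature replicate 2. How many reads a single count stands for is not known, so the lowest counts may rest on very few reads. The submitters' processing notes name cutadapt 1.9, HISAT2 2.2.1, StringTie 2.1.6, DESeq2, edgeR and the build mm9, with no roles. The coordinates in the table are those of GRCm38: of 28588 gene IDs shared with GENCODE M21, 96.289% share a boundary. Reads per FPKM kept a fixed ratio between members in all libraries, so the values hold no information on isoforms. The libraries were made with a strand-marking kit per the labels.

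Counts were tested in R 4.3.3 with edgeR 4.0.16 (filterByExpr, TMM, quasi-likelihood test, Benjamini-Hochberg adjustment over 17461 genes). The study's criteria, a log2 fold change of at least 1 in size and an adjusted p under 0.05, come from its methods, which name no test. The 95% intervals assume a normal error and are not adjusted. CPM are counts scaled to the TMM library size. The tests were tested on simulated data first. At the lowest member, 80 to 166 counts in a library limit the precision. The intervals come from the quasi-likelihood fit and so include the spread between libraries, not counting error alone. Whether reads of a single molecule were counted more than once was not tested.

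Named genes are all members, in each list the passing genes if at most 4, otherwise the 2 largest rises and falls, partners needed to read a member, the 3 genes most like each member, and passing neighbours within 250 kb, except a gene that is not reported here. Markers, overlapping genes, Irf1, Cmtm6, Gsk3b, Cops5, Ceacam1, Krt8 and Birc3 were named outside it, after their values were seen. Alternatives were DESeq2 1.42.0, limma 3.58.1 on log2(FPKM + 1) and log2(FPKM + 0.1) (3 libraries at 1 FPKM or more), other size factors, no filter, a filter of 5 FPKM in 3 libraries, adjusted p alone, a replicate block, and libraries left out. Ratios were tested with scipy 1.17.1, and start windows come from RefSeq on GRCm38.p6.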

Additional observations from a re-analysis of the deposited data

Results flagged for a closer look

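Of 29 gene values compared across the 4 mature libraries, 2 had 1 library far from the rest, its gap to the nearest other library divided by the whole range being above the limit of Dixon's test, where chance alone picks about 1 in 20. Icos, the gene of a T cell receptor for ICOS ligand, had 3.25 CPM in mature replicate 2, where the remaining mature libraries had 2.18 to 2.33 CPM (gap over range 0.865). Relb, an NF-kappa B subunit gene, had 324 CPM in mature replicate 3, where the remaining mature libraries had 226 to 241 CPM (gap over range 0.846). No member of the B7 family was among them.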

How the results depend on the processing

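The calls of Cd80, Cd86 and Vsir kept their direction and their side of the criteria under all 18 alternatives, with log2 fold changes of 2.42 to 2.60, 3.21 to 3.48 and -2.65 to -2.43. Cd274 (adjusted p 8.3e-11 to 0.0108) and Pdcd1lg2 (1.7e-14 to 0.00381) had an adjusted p under 0.05 throughout and passed as calls, at 0.56 and 0.69, where adjusted p alone was asked for. That rule called 5 members, 8053 genes in all, 4 genes acting on PD-L1 protein and 13 interferon and NF-kappa B genes. When single libraries were left out, log2 fold changes ran from 0.54 to 0.63 for Cd274, from 0.65 to 0.75 for Pdcd1lg2, from 0.10 to 0.28 for Icosl, from -0.66 to -0.33 for Cd276 and from -0.35 to -0.19 for Havcr2. Cd276 turned to 0.041 and Btnl9 to -1.12 without mature replicates 2, 3 and 4, where the lone mature library is assumed to vary like the immature ones and the cause was not tested. In that fit Btla no longer passed. Btnl9 kept its call in 8 of 15 alternatives and Ifngr1 in 5 of 18.

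All tested genes past the criteria numbered 1525 under the filter of 5 FPKM and 2561 or 1768 with limma on log2(FPKM + 0.1) or log2(FPKM + 1), where fewer genes were tested. Those filters remove rare genes: other B7 genes past the criteria were 0 in these 3 fits, receptors 0, 2 and 2, TIM genes 1 in each, and genes acting on PD-L1 protein 0 under the filter of 5 FPKM. Cd276 could not be tested in them. Other B7 genes past the criteria were 1 without mature replicates 2, 3 and 4, and 0 to 2 with single libraries left out, with 0 without mature replicate 4. Genes acting on PD-L1 protein were 1 to 2 there, with 2 without immature replicate 2 or mature replicate 4, and members were 3 throughout. Library totals and upper-quartile factors moved the median of all genes from 0.055 to 0.16 and the share of higher calls from 57.0% to 63.1% and 63.3%, and no member changed sign.

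Deviations of same-numbered libraries from their group means correlated at 0.029, -0.001 and 0.014. Such small values cannot show whether these libraries share a mouse or culture, which the labels do not give. With the replicate block, in which mature replicate 4 has no partner, 3616 genes passed, members stayed at 3, other B7 genes fell to 1 and genes acting on PD-L1 protein came to 2.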
